A study of Mus musculus with 15 samples.

Results

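The genes described here run mitochondrial fatty acid oxidation, the neighbouring acyl-CoA steps of amino acid breakdown and the ketone body reactions in mouse liver. Of 36 genes listed for these functions, 35 had a probe set with their symbol as its only symbol, out of 19938 genes measured on the arrays, and Ucp2 was not analysed here. Where a gene had more than 1 such probe set, the one with the highest mean log2 intensity over all arrays was kept. The members were sorted by role: 5 genes of the carnitine shuttle and its fuel gate, 11 of straight-chain β-oxidation, 3 other acyl-CoA dehydrogenases, 3 of electron transfer, 10 of branched-chain and other amino acid acyl-CoA steps (called the branched-chain list below), 2 of ketone bodies and 1 uncoupling protein.

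The arrays compared wild-type mice (129S1/SvlmJ) with mice null for PPARα (129S4/SvJae-Pparatm1Gonz/J), each given di(2-ethylhexyl) phthalate (DEHP), a plasticizer and peroxisome proliferator, or its vehicle. All were males aged 7.5 months ± 2.5 weeks from an inbred colony kept on 129/Sv, fed LabDiet 5001 and gavaged daily for 4 days with corn oil, which carried DEHP at 1150 mg/kg/day in the treated groups. There were 4 wild-type controls (WT-52 to WT-55), 4 wild-type mice given DEHP (WT-56 to WT-59), 4 null controls (KO-115 to KO-118) and 3 null mice given DEHP (KO-121 to KO-123), with 1 liver array per mouse. The null allele was constitutive, and because the genotypes came from different 129 substrains, genotype and substrain cannot be told apart.

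Mitochondria burn fatty acids in a fixed order. The carnitine shuttle carries long-chain acyl groups across the inner membrane, each turn of the β-oxidation spiral then dehydrogenates, hydrates, dehydrogenates again and cleaves the chain, and electrons from the first step pass through the electron transfer flavoprotein to ubiquinone. Liver turns much of the resulting acetyl-CoA into ketone bodies. The breakdown of valine, leucine, isoleucine and lysine uses dehydrogenases and hydratases of the same families on branched or dicarboxylic acyl-CoAs. PPARα is a nuclear receptor that binds fatty acids and peroxisome proliferators and is known to activate many fatty acid oxidation genes in liver.

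Values are log2 of the deposited intensities, and differences are log2 values ± moderated standard error from limma, with p adjusted by Benjamini-Hochberg over all 19938 genes. The words rose, fell, higher and lower are used as calls for genes whose adjusted p was under 0.05; for other genes the values are given. Median intensity per array ran from 44.4 to 47.5, and arrays of a group, each from its own mouse, correlated at r = 0.988 to 0.992. The probe sets over which r was taken are not independent of each other. The targeted gene, Ppara, read -0.69 ± 0.12 in null against wild-type controls (adjusted p = 0.00645), and because no source used here places its probe set in the gene, this does not check the deletion. The 7 hepatocyte marker genes measured, Alb, Ttr and Apoa1 among them, summed to between 62571 and 69925 in intensity on every array. The mice WT-58, KO-121 and WT-57 stood apart. WT-58 was the highest of the 4 wild-type DEHP mice in 23 of 35 members, including 10 of 11 straight-chain and 5 of 5 carnitine shuttle genes. KO-121 had a summed intensity of 2385 over 4 skeletal muscle markers, against 193 to 229 on the other null arrays, and WT-57 had a cholangiocyte marker sum of 440. Counts are therefore also given without these mice. In whole liver, fewer cells of a type and less RNA per cell cannot be told apart.

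In wild-type liver DEHP raised most genes of the β-oxidation spiral, while most branched-chain genes did not pass the test. Of the 35 members 14 rose and 1 fell, against 2.29% of all genes that rose and 1.57% that fell. Among the 11 straight-chain genes 9 rose, by 0.23 to 1.01, led by Eci1, Decr1 and Acadl. Of the 10 genes on the branched-chain list 1 rose (Hibch) and 1 fell (Pccb). The median difference was 0.57 for the straight-chain list and -0.04 for the branched-chain list, a gap of 0.61, beside -0.01 for all genes. In 19 members no wild-type DEHP mouse fell within the range of the controls, which held for 11.9% of all genes. Hepatocyte marker sums were 62571 to 64333 in treated wild-type mice and 66029 to 66934 in their controls, with 6 of 7 genes at negative differences and 1, Cps1, called lower (-0.34 ± 0.08, adjusted p = 0.019). Stellate marker sums were 820 to 905 against 968 to 1010, with 3 of 6 genes negative and 1, Reln, called lower. Endothelial marker sums were 2007 to 2279 against 2257 to 2501, with 4 of 6 genes negative and 1 called lower. Their part in the response was not tested.

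**Figure D1:**
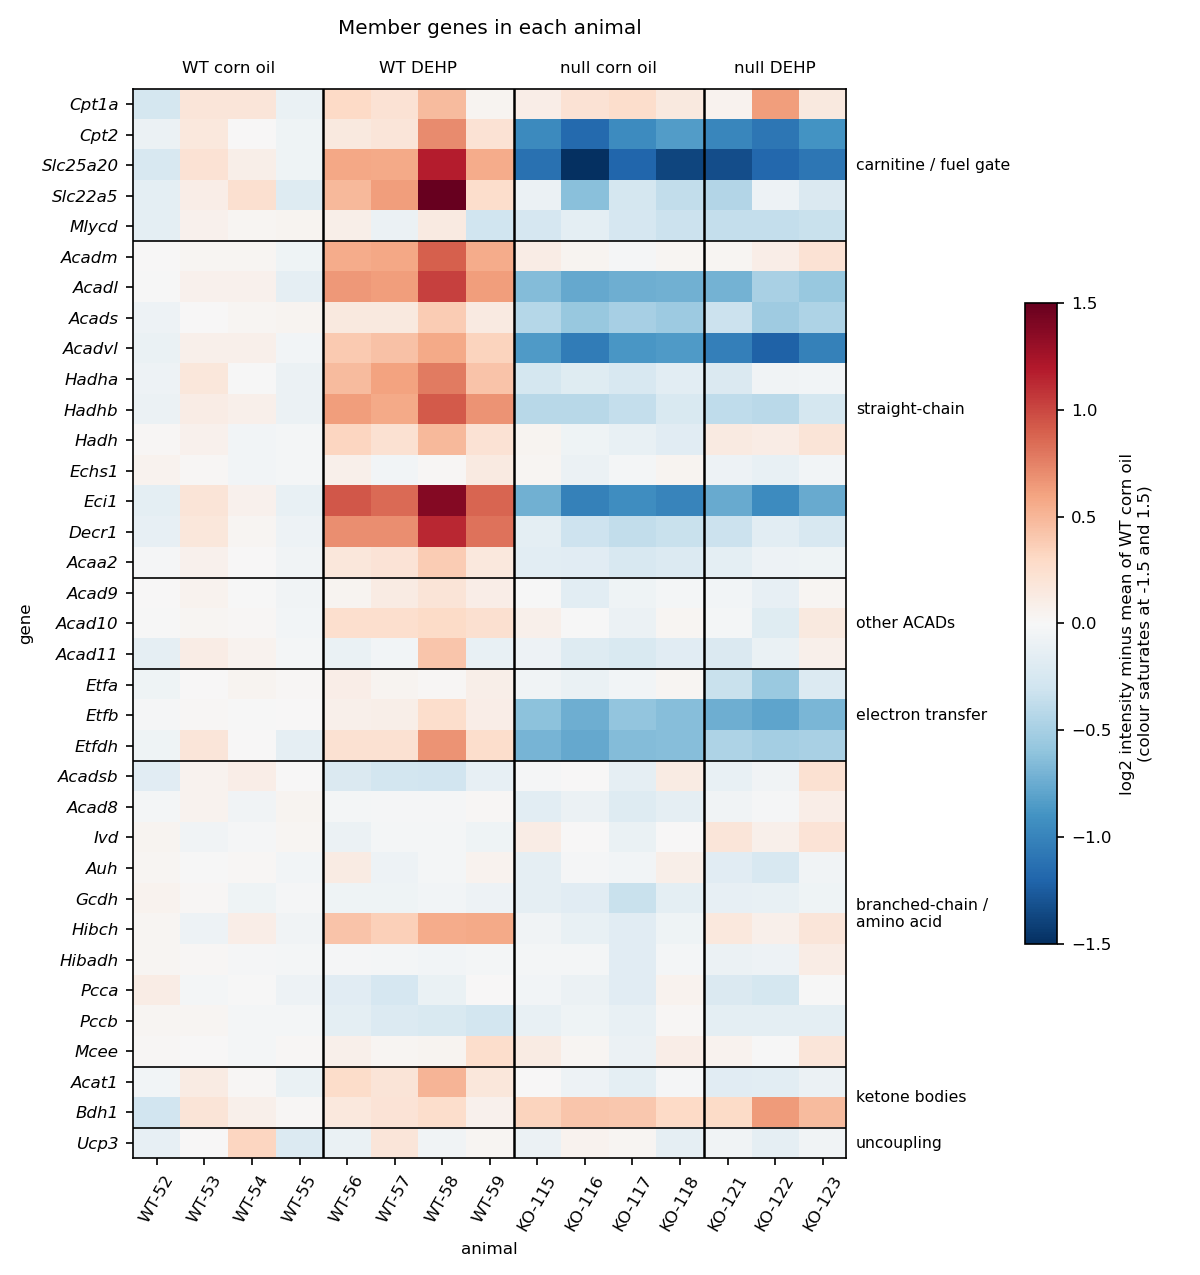
Each cell is the log2 intensity of 1 member (vertical axis, ordered by role) in 1 animal (horizontal axis) minus the mean of the 4 wild-type corn oil mice, with colour saturating at -1.5 and 1.5. The 4 wild-type DEHP columns are red over most straight-chain genes, WT-58 most often the deepest, while the null columns are blue for Cpt2, Slc25a20, Acadl, Acads, Acadvl, Eci1, Etfb and Etfdh.

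The double-bond enzymes moved farthest. Eci1 encodes the isomerase that shifts double bonds of unsaturated chains into the position the spiral can use. It read 10.14, 10.47, 10.34 and 10.17 in wild-type controls and 11.22, 11.12, 11.66 and 11.16 with DEHP. In null mice it read 9.56, 9.27, 9.35 and 9.29 in controls and 9.53, 9.34 and 9.53 with DEHP. The 4 treated wild-type mice lay above every other mouse, and both null groups lay below every wild-type mouse. The rise was 1.01 ± 0.11, or 2.01-fold (adjusted p = 0.000113).

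Decr1 encodes the reductase that removes conjugated double bonds. Its levels were 10.49, 10.78, 10.64 and 10.54 in wild-type controls and 11.31, 11.31, 11.74 and 11.42 with DEHP. Null controls read 10.46, 10.30, 10.24 and 10.28 and null DEHP mice 10.29, 10.46 and 10.38. The wild-type groups were well apart and the null groups overlapped. The wild-type rise was 0.83 ± 0.09, 1.78-fold (adjusted p = 0.000128).

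The first step is shared out among dehydrogenases for different chain lengths. Acadl, the long-chain enzyme, read 10.53, 10.59, 10.60 and 10.40 in wild-type controls and 11.18, 11.16, 11.56 and 11.16 with DEHP. In the nulls it read 9.88, 9.76, 9.80 and 9.81 without and 9.82, 10.05 and 9.96 with DEHP. All nulls lay below all wild-type mice, and within wild type the treated mice lay above the controls by 0.74 ± 0.09 (adjusted p = 0.000164). Acadvl, the very-long-chain enzyme of the inner membrane, read 11.01, 11.19, 11.19 and 11.07 in wild-type controls, 11.50, 11.55, 11.69 and 11.45 with DEHP, and between 9.90 and 10.27 in the 7 nulls. As with Acadl every null lay below every wild-type mouse, and the wild-type rise was 0.43 ± 0.07 (adjusted p = 0.00327).

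Acadm, the medium-chain enzyme, had a different starting point. It read 12.03, 12.05, 12.05 and 11.95 in wild-type controls and 12.14, 12.06, 12.00 and 12.05 in null controls, so the controls of both genotypes overlapped. With DEHP wild-type mice read 12.58, 12.60, 12.92 and 12.58 and nulls 12.05, 12.13 and 12.24. Only the treated wild-type mice stood clear of the rest, by 0.65 ± 0.08 over their controls (1.57-fold, adjusted p = 0.000161). Acads, the short-chain enzyme, read 10.32, 10.40, 10.42 and 10.43 in wild-type controls and 10.54, 10.54, 10.78 and 10.53 with DEHP. The groups did not overlap, but the difference of 0.20 ± 0.07 did not pass (adjusted p = 0.131). Null controls read 9.96, 9.83, 9.90 and 9.85 and null DEHP mice 10.07, 9.86 and 9.93, all below every wild-type mouse.

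**Figure D2:**
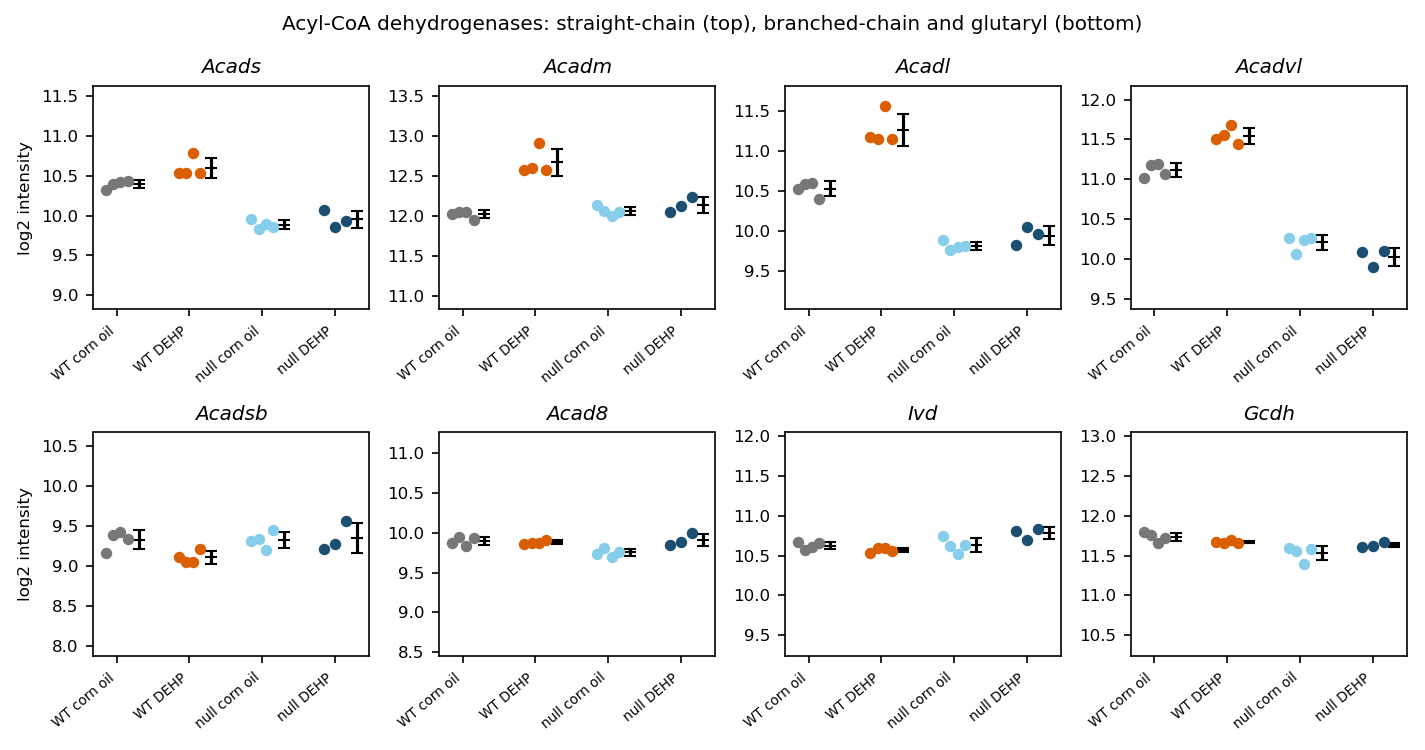
Points are the log2 intensities of 8 acyl-CoA dehydrogenases in single mice of the 4 groups, with mean ± SD beside each group (n = 4, 4, 4 and 3); all panels span the same height in log2 units around the gene's own mean. The treated wild-type group stands above its controls for Acadm, Acadl and Acadvl, whose differences were 0.65, 0.74 and 0.43, and the panels of Acadsb, Acad8, Ivd and Gcdh show no such step.

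The later steps followed with 1 exception. Hadhb encodes the β subunit, a thiolase, of the trifunctional protein, which carries out the last 3 reactions on long chains. It read 10.69, 10.88, 10.85 and 10.68 in wild-type controls and 11.40, 11.35, 11.69 and 11.45 with DEHP, without overlap. The null mice read 10.36, 10.37, 10.42 and 10.55 in controls and 10.39, 10.37 and 10.51 with DEHP, and those groups overlapped. The wild-type rise was 0.70 ± 0.08 (1.62-fold, adjusted p = 0.000138), and a second probe set of the gene moved by 0.70. Its partner Hadha, the α subunit with the hydratase and dehydrogenase, rose by 0.57 ± 0.08 (adjusted p = 0.00077). Hadh, the dehydrogenase for shorter hydroxyacyl chains, rose by 0.31 ± 0.07, and Acaa2, the thiolase that releases acetyl-CoA, by 0.23 ± 0.06 (adjusted p = 0.0142 and 0.0383). Echs1, the short-chain hydratase between them, read 0.05 ± 0.06, with a 95% interval of -0.07 to 0.17, and its 4 treated mice (10.77 to 10.94) overlapped the controls (10.77 to 10.86).

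Promoter windows from RefSeq (GRCm38.p6) were matched by gene identifier for 31 of the 35 members. They are shown for the members that moved together, because PPARα is known to bind, with the retinoid X receptor, a direct repeat made of the hexamer AGGTCA, 1 base of any kind and AGGTCA again. That full string of 13 letters was found on neither strand in any of the 33 member windows of 300 bases, and in 0.0396% of all 32851 windows. With up to 2 mismatches in its 12 fixed letters it was found in 5 of 33 member windows (15.2%) and 3.86% of all windows. The single hexamer, which is part of the repeat, was found in 8 of 33 member windows (24.2%) and 16.3% of all windows. Among the members with a window it occurred in 2 of the 11 that rose in wild-type mice with DEHP and in 5 of the other 20. The 250 bases before the start of Acadm, chr3:153944644-153944893 on the minus strand, are printed 5′ to 3′ with the hexamer in capitals, read here as its reverse complement.
Acadm: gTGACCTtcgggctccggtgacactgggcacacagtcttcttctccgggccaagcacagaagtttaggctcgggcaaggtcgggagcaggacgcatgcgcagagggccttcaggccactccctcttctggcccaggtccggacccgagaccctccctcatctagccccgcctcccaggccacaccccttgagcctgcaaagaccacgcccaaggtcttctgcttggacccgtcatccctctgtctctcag
Hadha and Hadhb lie head to head on chromosome 5, with 272 bases between their start sites, so the same stretch precedes both genes of the trifunctional protein. Its 250 bases next to the Hadhb start, chr5:30155003-30155252 on the plus strand, hold no hexamer and therefore no capitals.
Hadhb: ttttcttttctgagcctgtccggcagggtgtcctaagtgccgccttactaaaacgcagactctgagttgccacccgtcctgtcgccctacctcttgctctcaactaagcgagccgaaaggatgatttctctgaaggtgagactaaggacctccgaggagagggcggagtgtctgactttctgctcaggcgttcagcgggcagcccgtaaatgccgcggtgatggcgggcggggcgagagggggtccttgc

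Shorter stretches of 30 bases place the matches in 4 other genes with different responses. For Acadvl (chr11:70015498-70015527, minus strand) and Cpt1a (chr19:3323195-3323224, plus strand) the capitals mark a single hexamer, in Cpt1a as its reverse complement. For Echs1 (chr7:140116484-140116513, minus strand) and Slc25a20 (chr9:108662133-108662162, plus strand) they mark the 13-base repeat with 2 mismatches, in Slc25a20 after the start site.
Acadvl: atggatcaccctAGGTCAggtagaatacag
Cpt1a: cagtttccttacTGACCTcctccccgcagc
Echs1: agcccgctcAGGTCACGGGTCCacccctta
Slc25a20: cctgaatgtAGGTGAAAGGTCGgcggagcc
Acadvl and Slc25a20 rose in wild-type mice, while Cpt1a and Echs1 did not pass the test. Among all members with such a repeat, Echs1, Etfa, Pcca, Slc25a20 and Ucp3, only Slc25a20 rose. These matches are descriptions of letters in a window and not binding sites.

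In the carnitine shuttle 1 of 5 genes rose. Slc25a20, the translocase that swaps acylcarnitine for carnitine across the inner membrane, read 9.96, 10.42, 10.28 and 10.14 in wild-type controls and 10.78, 10.77, 11.38 and 10.75 with DEHP. The nulls read 9.08, 8.68, 9.01 and 8.82 without and 8.87, 9.02 and 9.11 with DEHP. Treated wild-type mice lay above their controls by 0.72 ± 0.14 (1.65-fold, adjusted p = 0.00682), and every null lay below every wild-type mouse. Slc22a5, the plasma membrane carnitine importer, read 7.12, 7.36, 7.50 and 7.08 in wild-type controls and 7.75, 7.90, 8.81 and 7.53 with DEHP. The groups were apart by 0.73 ± 0.21, a size like that of Slc25a20, but WT-58 alone was far above the others and the difference did not pass (adjusted p = 0.0631). It passed when WT-59 was left out and when only genes at or above the median level were tested. The nulls read 7.18, 6.64, 7.00 and 6.89 in controls and 6.82, 7.18 and 7.04 with DEHP.

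Cpt2, which returns the acyl group to CoA inside the mitochondrion, read 9.54, 9.78, 9.63 and 9.56 in wild-type controls and 9.78, 9.82, 10.34 and 9.85 with DEHP. The difference of 0.32 ± 0.11 did not pass (adjusted p = 0.142). Null mice read 8.68, 8.46, 8.69 and 8.79 in controls and 8.65, 8.54 and 8.73 with DEHP, all well below the wild type. Cpt1a, the rate-controlling enzyme of the outer membrane, passed in no comparison, with 0.26 ± 0.13 for DEHP in wild-type mice (adjusted p = 0.33) and overlapping groups. Mlycd, which removes malonyl-CoA, the inhibitor of Cpt1a, read -0.04 ± 0.08.

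Electron transfer genes moved less. Etfdh, the ubiquinone oxidoreductase that takes electrons from the flavoprotein, read 11.30, 11.55, 11.37 and 11.23 in wild-type controls and 11.59, 11.60, 12.04 and 11.62 with DEHP. Its nulls read 10.67, 10.59, 10.71 and 10.72 in controls and 10.89, 10.85 and 10.88 with DEHP. The wild-type rise of 0.35 ± 0.09 (adjusted p = 0.0477) was near the threshold, with all treated mice above all controls. Etfb, the β subunit of the flavoprotein, read 11.83, 11.87, 11.85 and 11.85 in wild-type controls, 11.93, 11.94, 12.12 and 11.95 with DEHP, 11.24, 11.12, 11.26 and 11.21 in null controls and 11.12, 11.05 and 11.17 in treated nulls. The treated wild-type mice were above their controls by 0.13 ± 0.06, which did not pass (adjusted p = 0.257). Etfa, the α subunit, read 11.62, 11.68, 11.72 and 11.69 in wild-type controls, 11.78, 11.72, 11.69 and 11.76 with DEHP, 11.63, 11.58, 11.64 and 11.71 in null controls and 11.35, 11.12 and 11.48 in treated nulls. The 3 treated nulls were the lowest of all mice, while the other 3 groups overlapped.

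Among the other acyl-CoA dehydrogenases, Acad10 rose by 0.26 ± 0.07 (adjusted p = 0.0377), from 9.20, 9.23, 9.21 and 9.16 to 9.45, 9.46, 9.49 and 9.44. Its nulls read 9.27, 9.19, 9.11 and 9.23 in controls and 9.17, 9.01 and 9.35 with DEHP, overlapping the wild-type controls. Acad9, which is known as an assembly factor of respiratory complex I, read 8.72, 8.76, 8.71 and 8.66 in wild-type controls, 8.76, 8.83, 8.90 and 8.81 with DEHP, 8.70, 8.56, 8.65 and 8.68 in null controls and 8.67, 8.59 and 8.74 in treated nulls. These groups lay close together, with 0.11 ± 0.06 for DEHP in wild-type mice (adjusted p = 0.336). Acad11 read 11.01, 11.26, 11.19 and 11.11 in wild-type controls, 11.04, 11.10, 11.56 and 11.03 with DEHP, 11.07, 10.95, 10.92 and 10.97 in null controls and 10.93, 11.04 and 11.22 in treated nulls. WT-58 was high and the groups overlapped, with 0.04 ± 0.10 for DEHP in wild-type mice.

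The branched-chain steps behaved differently. Hibch, the hydrolase that frees 3-hydroxyisobutyrate from CoA in valine breakdown, was the 1 member of its list that rose. It read 9.10, 9.00, 9.17 and 9.03 in wild-type controls and 9.51, 9.43, 9.63 and 9.64 with DEHP, 0.48 ± 0.06 higher (1.39-fold, adjusted p = 0.000407). The nulls read 9.02, 8.97, 8.90 and 9.01 in controls and 9.23, 9.15 and 9.26 with DEHP. Treated mice were above controls without overlap in both genotypes, although the null difference of 0.24 ± 0.07 did not pass (adjusted p = 0.123). Pccb, the β subunit of propionyl-CoA carboxylase, fell by 0.21 ± 0.05 (adjusted p = 0.0348). It read 11.25, 11.25, 11.19 and 11.20 in wild-type controls, 11.08, 11.02, 11.00 and 10.95 with DEHP, 11.11, 11.15, 11.11 and 11.24 in null controls and 11.08, 11.07 and 11.08 in treated nulls. Treated mice of each genotype lay below their own controls.

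The dehydrogenases of this list, relatives of the straight-chain enzymes, did not pass the test with DEHP. Acadsb, the enzyme of isoleucine breakdown, read 9.16, 9.38, 9.43 and 9.34 in wild-type controls and 9.12, 9.05, 9.05 and 9.21 with DEHP, a difference of -0.22 ± 0.08 (adjusted p = 0.179). In the nulls it read 9.31, 9.34, 9.20 and 9.45 in controls and 9.22, 9.27 and 9.56 with DEHP, so the treated wild-type mice were low and overlapped both control groups. Acad8, of valine breakdown, read 9.86, 9.94, 9.84 and 9.93 in wild-type controls, 9.86, 9.87, 9.88 and 9.91 with DEHP, 9.74, 9.81, 9.70 and 9.76 in null controls and 9.85, 9.88 and 9.99 in treated nulls. Its wild-type difference was -0.01 ± 0.05, with a 95% interval of -0.13 to 0.10, so a rise of the size of Acadm (0.65) lies outside it.

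Ivd, of leucine breakdown, read 10.67, 10.57, 10.61 and 10.65 in wild-type controls, 10.54, 10.59, 10.59 and 10.56 with DEHP, 10.74, 10.63, 10.52 and 10.63 in null controls and 10.81, 10.70 and 10.84 in treated nulls. The wild-type difference was -0.05 ± 0.06, with overlap. Gcdh, the glutaryl-CoA enzyme of lysine breakdown, read 11.79, 11.75, 11.66 and 11.72 in wild-type controls, 11.67, 11.66, 11.69 and 11.66 with DEHP, 11.60, 11.56, 11.40 and 11.58 in null controls and 11.61, 11.62 and 11.67 in treated nulls. It differed by -0.06 ± 0.06 with DEHP in wild-type mice, again with overlap. The other 4 genes of the list, the hydratase Auh, the dehydrogenase Hibadh, the carboxylase subunit Pcca and the epimerase Mcee, had wild-type differences from -0.13 to 0.11, and none passed.

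Of the ketone body genes, Acat1, the mitochondrial acetoacetyl-CoA thiolase, rose by 0.29 ± 0.08 (adjusted p = 0.0463). It read 10.99, 11.15, 11.05 and 10.93 in wild-type controls, 11.30, 11.22, 11.54 and 11.19 with DEHP, 11.03, 10.96, 10.88 and 11.01 in null controls and 10.86, 10.87 and 10.94 in treated nulls. The treated wild-type mice were the highest. Bdh1, which interconverts acetoacetate and 3-hydroxybutyrate, read 9.96, 10.44, 10.33 and 10.27 in wild-type controls, 10.41, 10.45, 10.51 and 10.31 with DEHP, 10.58, 10.67, 10.65 and 10.54 in null controls and 10.54, 10.88 and 10.72 in treated nulls. Every null was above every wild-type mouse, but the control difference of 0.36 ± 0.09 did not pass (adjusted p = 0.0862). The uncoupling protein gene Ucp3 was dim, between 4.50 and 5.03 in all 15 mice, with overlap of all groups.

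The wild-type count was below 15 whichever mouse was left out, controls included. Without any 1 of the 8 mice between 10 and 13 members were called, and without WT-58 10 were called, 8 of them straight-chain genes that rose, with a straight-chain median of 0.50. Without WT-57, WT-58 and KO-121 together 7 were called, Acadm, Acadl, Hadha, Hadhb, Eci1, Decr1 and Hibch, and the gap between the straight-chain and branched-chain medians was 0.50. These 7 genes passed under all 16 alternatives run. Calls for Acad10, Acaa2, Acat1, Etfdh and Pccb were lost in 7 or 8 of the 8 fits that left out 1 mouse.

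In null mice DEHP gave 0 called members, where 0.471% of all genes were called. At an unadjusted p under 0.05, limma gave 4 members higher and 2 lower, 17.1% of the members beside 12.3% of all genes. At that threshold 3 of 10 branched-chain genes were higher and 0 lower, while 1 of 11 straight-chain genes was higher and 1 lower. The groups did not overlap in 9 members, against 9.99% of all genes. Among them were 4 branched-chain and 2 straight-chain genes. The straight-chain median was 0.08 and the branched-chain median 0.04, a gap of 0.03, beside 0.01 for all genes. Acadm read 0.08 (95% interval -0.10 to 0.25), Eci1 0.10 (-0.16 to 0.35) and Hadhb -0.00 (-0.18 to 0.18), so the wild-type rises of these 3 genes lie outside their null intervals. Etfa was the nearest to a call, at -0.33 ± 0.07 (adjusted p = 0.0645), and passed when KO-123 was left out and under 4 other settings. Hadh, at 0.22 ± 0.07 (adjusted p = 0.191), had all 3 treated nulls above all null controls, as had Acaa2, Etfdh, Acad8, Gcdh and Hibch. Muscle markers moved with KO-121 in this group. Without that mouse 0 members were called.

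**Figure D3:**
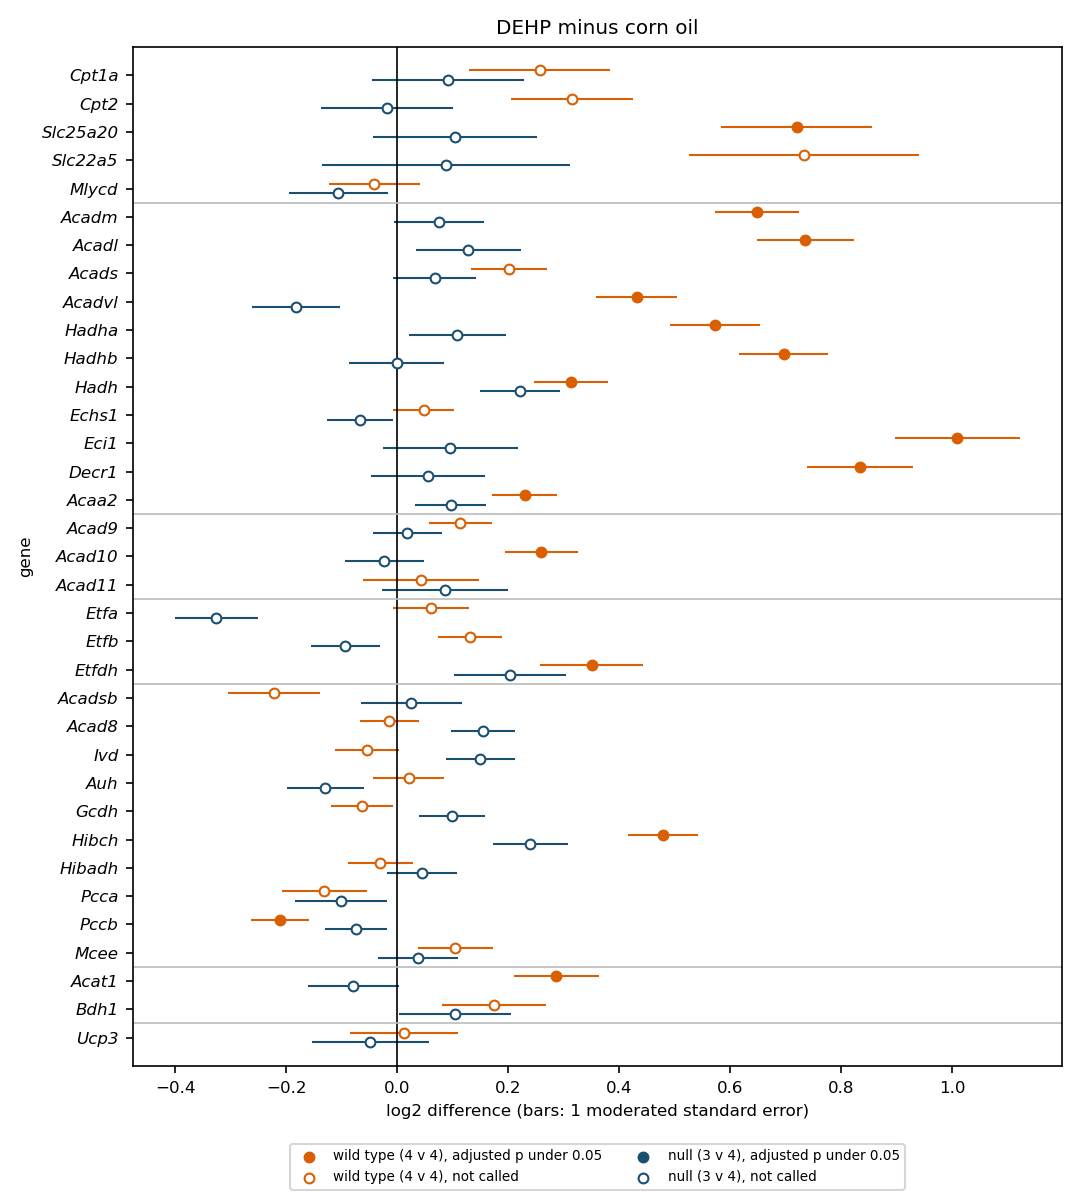
Horizontal position is the log2 difference between DEHP and corn oil for each member, orange for wild-type mice (4 against 4) and blue for null mice (3 against 4), with bars of 1 moderated standard error and filled points where the adjusted p was under 0.05. Filled wild-type points reach 1.01 for Eci1 and cluster in the straight-chain block, while all null points are open and lie between -0.33 and 0.24.

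The difference between the responses was tested directly. It was lower in null mice for 6 members and higher for 0, where 0.562% of all genes were called lower and 0.336% higher. All 6 belong to the straight-chain list: Eci1 (-0.91 ± 0.17, adjusted p = 0.0185), Decr1 (-0.78 ± 0.14, adjusted p = 0.0178), Hadhb (-0.70 ± 0.12, adjusted p = 0.0142), Acadvl (-0.61 ± 0.11, adjusted p = 0.0163), Acadl (-0.61 ± 0.13, adjusted p = 0.0363) and Acadm (-0.57 ± 0.11, adjusted p = 0.0236). The straight-chain median was -0.57 and the branched-chain median 0.11, a gap of -0.68, beside 0.03 for all genes. Hadha (-0.46 ± 0.12, adjusted p = 0.0759), which passed together with Etfa under 3 alternatives that called 8 members, and Slc25a20 (-0.62 ± 0.20, adjusted p = 0.165) did not pass, nor did Hibch (-0.24 ± 0.09, adjusted p = 0.26), whose response is thus not shown to differ between genotypes. Without KO-122 only Hadhb and Decr1 passed, without KO-121 all but Acadl, without WT-58 all 6, and without WT-57, WT-58 and KO-121 together only Eci1, with a gap of -0.56. Without KO-123 Acadl was lost and Etfa passed. Endothelial markers had positive differences in this contrast in 6 of 6 genes, 1 of them called, and their part in it was not tested.

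**Figure D4:**
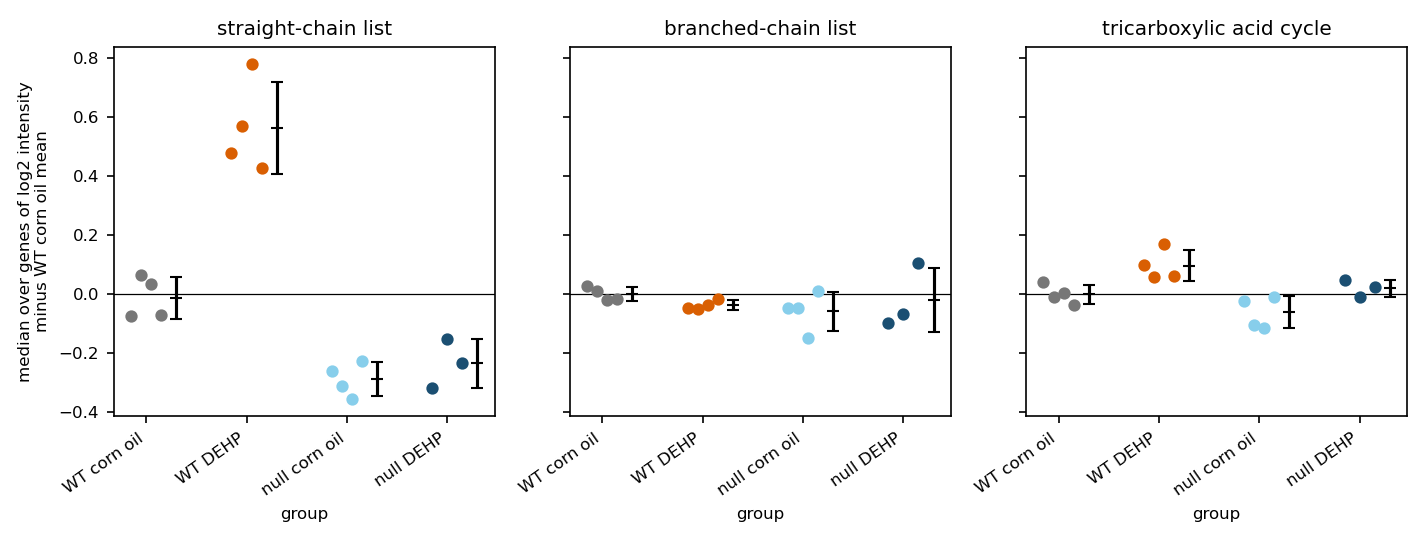
Each point is 1 mouse, and the vertical axis is the median over a list's genes of log2 intensity minus the wild-type corn oil mean, with group mean ± SD beside the points (n = 4, 4, 4 and 3). On the straight-chain panel treated wild-type mice lie between 0.43 and 0.78 and the 7 nulls between -0.36 and -0.15, while the branched-chain and tricarboxylic acid cycle panels stay within -0.15 and 0.17.

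Without DEHP, null livers had lower transcript levels of several shuttle, long-chain and electron transfer genes. In null against wild-type controls 9 members were lower and 0 higher, where 0.547% of all genes were called lower and 0.642% higher. They were the shuttle genes Slc25a20 (-1.30 ± 0.14, adjusted p = 6.96e-05) and Cpt2 (-0.97 ± 0.11, adjusted p = 0.000139), the spiral genes Eci1 (-0.91 ± 0.11), Acadvl (-0.91 ± 0.07), Acadl (-0.72 ± 0.09), Acads (-0.51 ± 0.07) and Hadhb (-0.35 ± 0.08), and the electron transfer genes Etfdh (-0.69 ± 0.09) and Etfb (-0.64 ± 0.06). The Hadhb call (adjusted p = 0.0428) was lost in 7 of the 8 fits that left out 1 control, and the other 8 passed under all 16 alternatives. In 16 members the control groups did not overlap, against 7.72% of all genes. The straight-chain median was -0.29 and the branched-chain median -0.06, a gap of -0.23, beside -0.01 for all genes, and 0 of the 10 branched-chain genes passed, although Gcdh (-0.20 ± 0.06, adjusted p = 0.113) was called lower under 2 alternatives. Stellate marker sums were 1118 to 1576 in null and 968 to 1010 in wild-type controls, with 6 of 6 genes positive (median 0.30). Kupffer cell markers summed to 1621 to 2096 against 1424 to 1648, with 7 of 7 positive (median 0.25), and 0 genes of either list were called. Their part in these differences was not tested. Acadm read 0.04 ± 0.08, with a 95% interval of -0.12 to 0.20, and Etfa read -0.04 ± 0.07.

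Under DEHP more members were lower in the nulls. In null against wild-type mice given DEHP 19 members were lower and 1 higher, against 5.61% and 5.09% of all genes. The member that was higher was Ivd (0.21 ± 0.06, adjusted p = 0.0438, lost in each of the 7 fits that left out 1 mouse). The lowest were Slc25a20 (-1.92 ± 0.15, 0.264-fold), Eci1 (-1.83 ± 0.12), Acadvl (-1.52 ± 0.08), Acadl (-1.32 ± 0.09) and Cpt2 (-1.31 ± 0.12), and all 3 electron transfer genes were lower, Etfa with a difference of -0.42 ± 0.07. Of the straight-chain genes 9 were lower and Hadh and Echs1 did not pass, while on the branched-chain list Hibch was lower (-0.34 ± 0.07) and 8 did not pass. The groups did not overlap in 25 members, against 20.5% of all genes. The gap between the list medians was -0.67. Endothelial marker genes summed to 2579 to 2792 in treated nulls and 2007 to 2279 in treated wild-type mice. Stellate markers summed to 1048 to 1508 against 820 to 905, and Kupffer cell markers to 1727 to 2111 against 1230 to 1914. Hepatocyte markers summed to 65423 to 69925 against 62571 to 64333, with 4 of 7 genes positive. Called higher in nulls were 3 of 6 endothelial, 2 of 6 stellate, 1 of 7 Kupffer cell and 2 of 7 hepatocyte genes. In these lists 0 genes were called lower, and 5.09% of all genes were called higher. Their part in these differences was not tested. Without WT-57, WT-58 and KO-121 15 members were called.

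**Figure D5:**
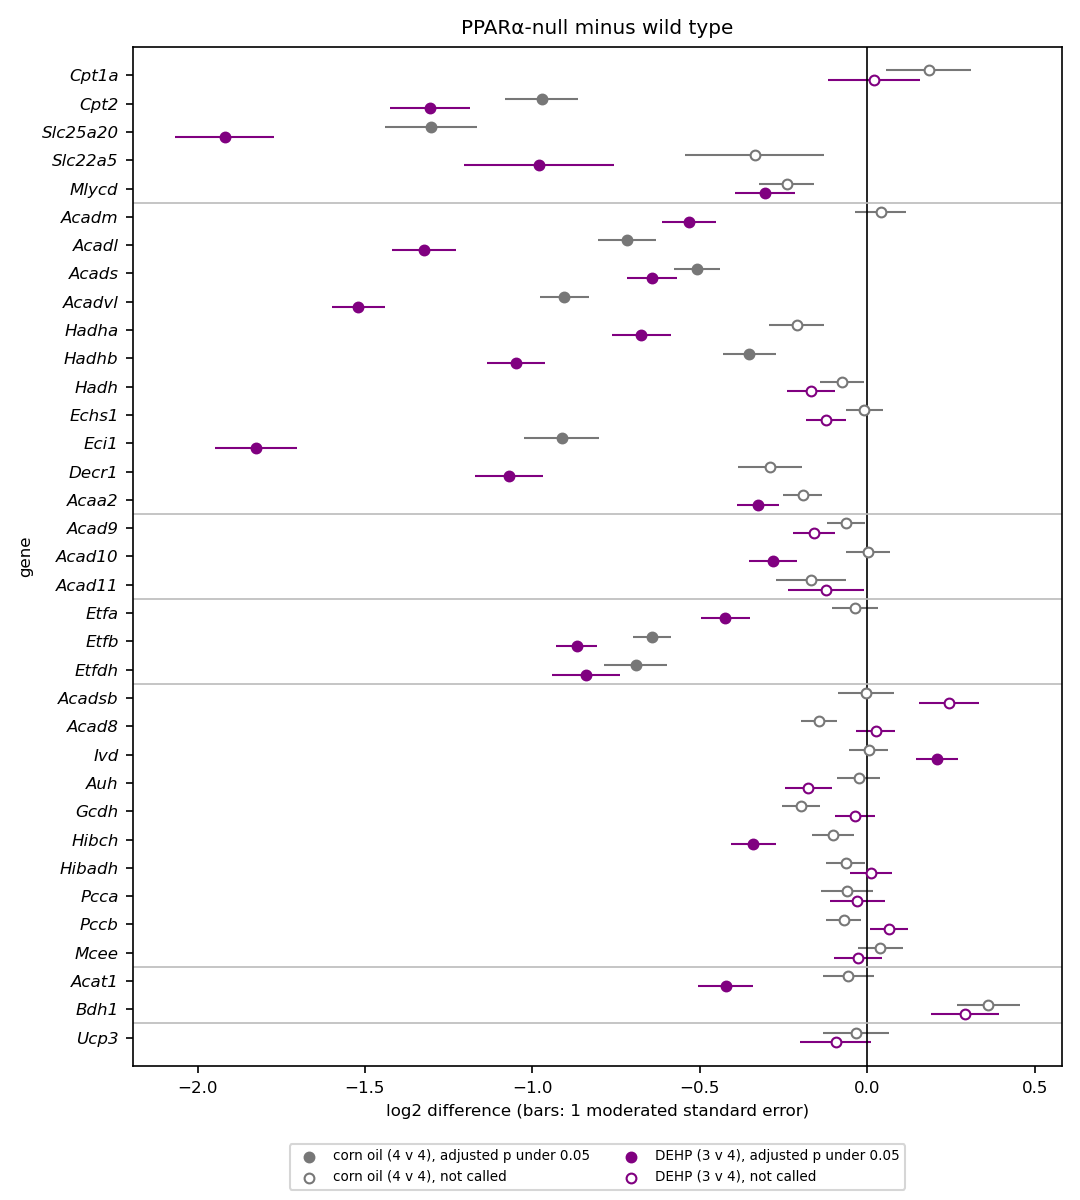
Horizontal position is the log2 difference of null minus wild-type mice for each member, grey with corn oil (4 against 4) and purple with DEHP (3 against 4), with bars of 1 moderated standard error and filled points where the adjusted p was under 0.05. Filled points reach -1.92 for Slc25a20, and the block of branched-chain genes lies between -0.34 and 0.24.

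Setting the wild-type response beside the control genotype difference sorted the members by pattern; both comparisons use the same 4 wild-type controls, so they are not independent. Of the 35, 6 rose with DEHP and were lower in null controls: Slc25a20, Acadl, Acadvl, Hadhb, Eci1 and Etfdh. Another 8 rose and were not called between controls: Acadm, Hadha, Hadh, Decr1, Acaa2, Acad10, Hibch and Acat1. The 3 genes Cpt2, Acads and Etfb were lower in null controls without a called rise, Pccb fell with DEHP, and 17 were called in neither. Per mouse, the straight-chain median minus the branched-chain median, each taken from the wild-type control mean, was 0.44 to 0.82 in treated wild-type mice, -0.10 to 0.05 in their controls, -0.26 to -0.21 in null controls and -0.34 to -0.08 in treated nulls. The null groups overlapped and the treated wild-type mice lay above all others.

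Genes around the pathway were taken from lists kept apart from the members. DEHP in wild-type mice raised 6 of 9 other fatty acid oxidation genes and lowered 0 (median 0.37), beside 2.29% and 1.57% of all genes (median -0.01). The acyl-CoA thioesterase gene Acot2 rose by 2.24 ± 0.27 (adjusted p = 0.000206) and carnitine acetyltransferase Crat by 1.13 ± 0.22 (adjusted p = 0.00882). WT-58 read 10.73 for Acot2 and 10.24 for Crat, against 9.09 to 9.17 and 8.87 to 9.17 in the other treated wild-type mice. Pdk4, the kinase that shuts off pyruvate dehydrogenase, rose by 1.12 ± 0.23 (adjusted p = 0.0127) and the isomerase Eci2 by 0.59 ± 0.14 (adjusted p = 0.0222). Mean Pdk4 was 5.77 in wild-type controls, 6.89 in treated wild-type mice, 6.80 in null controls and 7.34 in treated nulls. In null mice 1 of the 9 rose, where 0.471% of all genes were called, the medium-chain acyl-CoA synthetase gene Acsm1 (0.39 ± 0.08, adjusted p = 0.0351), which read -0.01 ± 0.07 in wild-type mice. The null median of the list was 0.26, beside 0.01 for all genes, with 7 of 9 differences positive. The difference of the responses, called lower in 0.562% of all genes, passed for Acot2 (-1.99 ± 0.40, adjusted p = 0.031) and Hsd17b10 (-0.47 ± 0.10, adjusted p = 0.0336), and was not called for Acsm1 (0.41 ± 0.10, adjusted p = 0.072).

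The steps of branched-chain amino acid breakdown before and after the listed acyl-CoA enzymes held 14 measured genes. In wild-type mice with DEHP 1 rose, the cobalamin adenosyltransferase gene Mmab (0.50 ± 0.08, adjusted p = 0.00226), and 2 fell, the transaminase gene Bcat2 (-0.31 ± 0.07, adjusted p = 0.0297) and the branched-chain ketoacid dehydrogenase subunit gene Dbt (-0.33 ± 0.08, adjusted p = 0.0261). Over all genes 2.29% rose and 1.57% fell. The median was -0.01, for the list as for all genes. In null mice limma called 0 of the 14, with 5 higher and 0 lower at an unadjusted p under 0.05, 35.7% of the list beside 12.3% of all genes. Under DEHP the genotypes differed in 7 of them, 3 higher and 4 lower in nulls, beside 5.09% and 5.61% of all genes. Dbt (0.39 ± 0.08) and Bcat2 (0.34 ± 0.08) were among the 3 higher, and differences over the 14 genes ran from -0.43 to 0.39.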

How the data were processed

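Liver RNA was purified by the mirVana method and 300 ng of it labelled with the Affymetrix WT cDNA kit, per the labels' protocols. The values used are intensity values per probe set in the authors' deposited table, positive and on a linear scale. They were normalized and summarized by steps not given in the sources used here, and batches are not named either. Values were put on the log2 scale without scaling or filtering. The annotation gave 21789 of 35494 probe sets a single symbol, 1621 several and 12084 none; 999 genes had more than 1 probe set, of which the brightest on average was used.

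A single limma model with 4 group means was fitted to 15 arrays and 19938 genes (residual degrees of freedom 11, prior 4.68), and tested on simulated data. Members, roles and lists were chosen with earlier results of these data known, so lists are described by counts and medians, without a test. Values in every mouse are given for the 3 members of each role with the largest wild-type DEHP difference (all in roles under 4 members), for members called in the interaction, in nulls or between controls, and for the acyl-CoA dehydrogenases. Other pathway genes named are up to 4 called per list by size. The labels give each array its own animal number. The number of arrays limits precision.

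Alternatives were quantile normalization, an offset of 16, brighter genes only, mean probe sets, trend and robust priors, array weights, fits on the compared groups only, a narrower branched-chain list, and each mouse left out. Leaving out WT-57, WT-58 and KO-121 together was chosen after seeing the data. R 4.3.3, limma 3.58.1, Python 3.11.15, pandas 2.3.3, numpy 2.4.6 and matplotlib 3.10.9 were used.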

Additional observations from a re-analysis of the deposited data

Results flagged for a closer look

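In 8 members WT-58 was far above the other 3 wild-type mice given DEHP, with a gap that took up most of the group's range: 0.981 of the range for Acads, 0.963 for Slc25a20, 0.952 for Acadm, 0.937 for Acadl, 0.930 for Etfdh, 0.911 for Etfb, 0.873 for Cpt2 and 0.855 for Acad11. In 3 other pairs of a member and a group of 4 a single mouse lay apart from the rest. Wild-type control WT-52 was low for Mlycd (0.850), null control KO-116 was low for Acadvl (0.863) and null control KO-117 was low for Hibadh (0.969). Of 105 pairs of a member and a group examined 11 passed, where chance gives about 1 in 20, or 5.25. Members of 1 mouse share its array and are not independent. The pairs came from the groups of 4 mice only, so the 3 treated nulls were not examined.

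The response to DEHP differed between genotypes by the interaction test for 6 members, each smaller in null mice: Eci1 (-0.91), Decr1 (-0.78), Hadhb (-0.70), Acadvl (-0.61), Acadl (-0.61) and Acadm (-0.57).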

How the results depend on the processing

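No member's difference that was called reversed under any alternative. The count of members called in null mice given DEHP went from 0 to 1 with quantile normalization, 1 with an offset of 16, 1 with trend and robust priors (Etfa each time) and 2 among genes at or above the median level (Etfa and Hibch). Leaving out WT-57, WT-58 and KO-121 together gave 7 members and a straight-minus-branched gap of 0.50 for DEHP in wild-type mice, and 1 member and -0.56 for the interaction; the cause was not tested, and these fits have fewer samples. With 1 mouse left out, counts ran from 10 to 13 (DEHP, wild type), 0 to 1 (DEHP, null), 2 to 6 (interaction), 8 to 9 (genotype, corn oil) and 17 to 19 (genotype, DEHP), and the gaps from 0.55 to 0.67, 0.0039 to 0.08, -0.72 to -0.59, -0.28 to -0.18 and -0.74 to -0.60. Of the 6 interaction members 0 passed under all 22 alternatives, and Acadl was lost most often, in 11 of 15 fits with 1 mouse left out, while the offset, brighter genes only and trend and robust priors called 8, adding Hadha and Etfa. For genotype with corn oil the same settings called 10, 11 and 10, adding Gcdh in the first 2 and Bdh1 in the last 2. The null gap of 0.03 became -0.02 with the narrower branched-chain list and -0.0029 with quantile normalization, within the spread between mice. No paired analysis was possible because animal numbers do not repeat between groups. Ucp3 is dim, and small differences in its level could not be seen.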

Other observations

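The tricarboxylic acid cycle, which burns the acetyl-CoA made by β-oxidation, had 14 measured genes. In wild-type mice with DEHP 4 rose and 0 fell, where 2.29% of all genes rose and 1.57% fell. They were the succinate-CoA ligase subunit genes Suclg1 (0.36 ± 0.08, adjusted p = 0.0145) and Suclg2 (0.36 ± 0.06, adjusted p = 0.00397), the gene Dlst of the oxoglutarate dehydrogenase complex (0.28 ± 0.07, adjusted p = 0.0439) and citrate synthase, Cs (0.23 ± 0.06, adjusted p = 0.0463). In null mice limma called 0, with 5 higher and 3 lower at an unadjusted p under 0.05, 57.1% of the list beside 12.3% of all genes. Cs and Suclg2 read 0.27 each in nulls, close to their wild-type values (adjusted p = 0.0837 and 0.0829), while the response of Suclg1 was lower in nulls by the interaction test (-0.60 ± 0.11, adjusted p = 0.0208).

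Among regulators of fatty acid oxidation, Acacb, which makes the malonyl-CoA that inhibits Cpt1a, rose in wild-type mice with DEHP (1.35 ± 0.16, adjusted p = 0.000164) and was also higher in null than in wild-type controls (1.23 ± 0.16, adjusted p = 0.000513). The mitochondrial deacetylase gene Sirt3 was lower in nulls than in wild-type mice under DEHP (-0.49 ± 0.09, adjusted p = 0.00262). Of the other 2 measured ketone body genes, Bdh2 was higher in nulls under DEHP (0.39 ± 0.11, adjusted p = 0.0344) and Oxct1 read 0.02 ± 0.15 with DEHP in wild-type mice.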
